A study of Mus musculus with 6 samples.

Results

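The genes described here handle arginine, ornithine and the polyamines. They are the arginases *Arg1* and *Arg2*, the arginine-making enzymes *Ass1* and *Asl*, the ornithine aminotransferase *Oat*, the polyamine-making enzymes *Odc1*, *Amd1*, *Srm* and *Sms*, and the polyamine acetyltransferase *Sat1*. The members were chosen by name, as the rows of the gene table whose Ensembl identifiers carry these symbols, and all 10 were found among 35565 rows. They were proposed with the difference between the groups already known, so their levels and fold changes are given as a description and without p-values. Bulk RNA sequencing measured mouse gastruloids, aggregates of embryonic stem cells (ESCs) that elongate and form tissues of the early trunk, at day 5 after aggregation. There were 3 libraries of Control (NT) gastruloids, from non-targeting control ESCs (given as wild type in the sample labels), and 3 libraries of KD-1 gastruloids, from a clone in which the lncRNA *T-UCstem1* is knocked down. All came from the TBV2 129/SvP ESC line and the study's gastruloid protocol uses a pulse of 3 µM CHIR99021, a GSK3 inhibitor that activates WNT signalling. KD-1 is a single clone, so any difference between the lines other than the knockdown enters the same comparison, and how far *T-UCstem1* RNA was reduced is not analysed here.

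Arginine stands at a branch point. Arginase splits it into urea and ornithine, nitric oxide synthases turn it into citrulline, and ASS1 and ASL rebuild it from citrulline and aspartate. Ornithine then goes either to proline and glutamate through OAT or to putrescine through ornithine decarboxylase, the first and most tightly controlled step of polyamine synthesis. Spermidine and spermine are made from putrescine by addition of aminopropyl groups, which come from S-adenosylmethionine (SAM) decarboxylated by AMD1. Polyamines bind RNA and chromatin and are abundant in dividing cells, and spermidine is the donor for hypusine, a modified lysine of the translation factor eIF5A.

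The Control (NT) libraries held between 20982249 and 56674906 estimated counts and the KD-1 libraries between 41180012 and 85561026. The libraries of a group all differed beyond sampling noise (chi-square over genes, per degree of freedom, 4.67 or more), so each was counted as 1 sample. Nothing in the sources used here says that the libraries of a group came from separate cultures, so errors and p-values measure only the spread between these libraries, which may be technical. The Control (NT) library of middle depth stood farthest from its group, with a chi-square of 34.0 and 34.3 per degree of freedom against the others, which differed from each other by 14.4. Results that turn on it are given below without it. Levels are CPM (counts scaled to a common library total) scaled by edgeR's TMM factors, errors are SDs across a group's 3 libraries, and fold changes are KD-1 over Control (NT) with the standard error of edgeR's quasi-likelihood fit. A gene is called where its adjusted p is under 0.05 and its change exceeds 1.5-fold in either direction. In bulk RNA, fewer cells of a type and less RNA per cell cannot be told apart. Of the 10 paraxial mesoderm and somite markers, 8 of 9 tested genes were called lower in KD-1 and their summed level went from between 588 and 676 CPM to between 75.3 and 78.1. Of the 9 naive pluripotency markers, 7 were called higher, with sums of 703 to 753 CPM in Control (NT) and 2040 to 2106 CPM in KD-1. The 8 markers of caudal epiblast and neuromesodermal progenitors went both ways, 3 called higher and 2 lower. In the order given, 88.9%, 77.8% and 62.5% of the tested markers were called, beside 37.7% of all genes tested. The study had already reported several of these markers as changed between KD-1 and Control (NT) gastruloids by bulk RNA sequencing. The marker shares are therefore a description and not independent of those reports.

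*Arg1*, the cytosolic arginase, was nearly lost in KD-1, while the mitochondrial arginase *Arg2* was barely present in either group. *Arg1* (ENSMUSG00000019987, GRCm39 chromosome 10, from 24791118 to 24803817, minus strand) had 80.1, 92.0 and 86.8 CPM in the Control (NT) libraries of lowest, middle and highest depth, and 0.262, 0.299 and 0.472 CPM in the KD-1 libraries in the same order. Every Control (NT) library was far above every KD-1 library, and the KD-1 values rest on 11, 13 and 41 counts. As a share of all counts these are 0.267, 0.306 and 0.479 CPM, with exact Clopper-Pearson 95% intervals of 0.133 to 0.478, 0.163 to 0.524 and 0.344 to 0.650, which cover counting error only. The mean went from 86.3 ± 5.93 CPM to 0.344 ± 0.112 CPM (SD, n = 3 each), 230-fold lower (-7.85 on the log2 scale, standard error 0.16). An antisense lncRNA, *Gm36172*, overlaps 23.8% of the exonic bases of *Arg1*, and without strand its reads cannot be told apart from those of *Arg1*. With any single library left out the log2 fold change lay between -8.23 and -7.70.

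*Arg2* (ENSMUSG00000021125, GRCm39 chromosome 12, from 79177524 to 79203075, plus strand) had 5, 21 and 10 counts in Control (NT) against 12, 15 and 27 counts for KD-1. In CPM these were 0.241, 0.622 and 0.181 against 0.286, 0.345 and 0.311, and the groups overlapped. The log2 fold change of -0.13 had a 95% interval from -1.34 to 1.08, so that a change by a factor of about 2 in either direction was not detectable at this depth. With the Control (NT) library of middle depth left out, which held the highest value, it was 0.64. Of the exonic bases of *Arg2*, 33.8% lie in exons of *Vti1b* on the opposite strand, and whether the counting used strand is not given in the sources used here, so reads from the shared bases cannot be told apart.

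The coding sequences of the arginases are related but distinct. Over their alignment 58.0% of columns were identical, the longest identical run was 12 bases, and no 31-base word of *Arg1* transcripts occurred in *Arg2*. Scaled by exon length, *Arg1* made up 99.3%, 98.5% and 99.6% of the summed arginase level in the Control (NT) libraries and 29.5%, 28.3% and 40.9% in the KD-1 libraries. The summed level itself was 27.3 ± 1.99 CPM per kb in Control (NT) against 0.324 ± 0.0417 for KD-1 (SD, n = 3 each), and in KD-1 both genes rested on few counts. With the length of the longest coding transcript in place of all exons, the *Arg1* share in KD-1 was 49.0% on average.

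**Figure D1:**
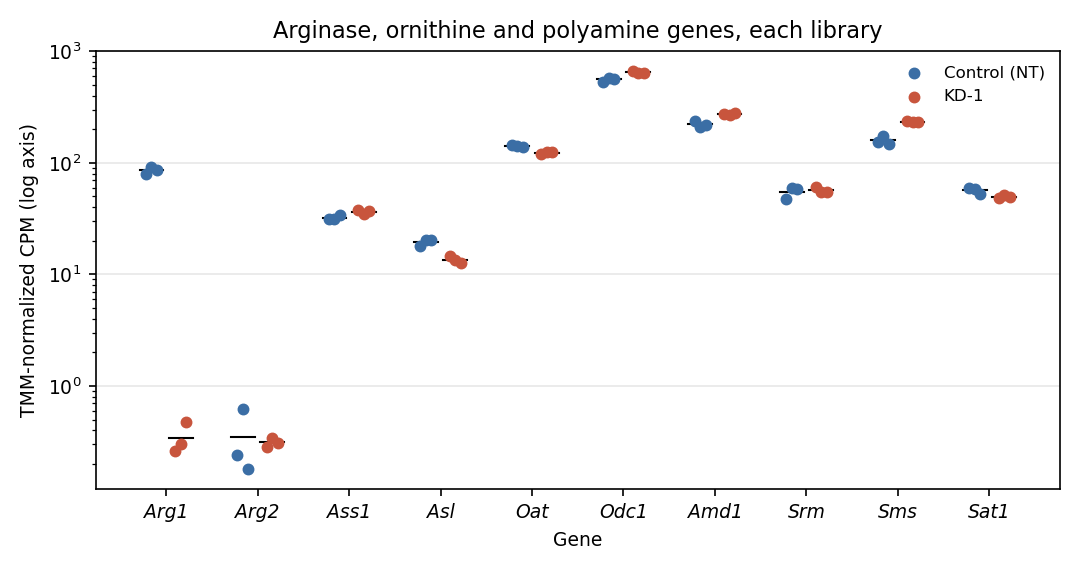
TMM-normalized CPM (log axis) of the 10 members in each library; points are libraries in the order lowest, middle and highest depth, and horizontal bars are group means. *Arg1* falls from between 80.1 and 92.0 CPM in Control (NT) to between 0.262 and 0.472 in KD-1, whereas in every other member the group means differ by less than 1.5-fold.

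Markers of cell types known for arginase were mixed or too low to test. Macrophages express *Arg1* when alternatively activated, and hepatocytes use it in the urea cycle. Of the 10 macrophage markers, *Fcgr1*, *Chil3* and *Retnla* were at 0 in every library and *Ptprc*, *Adgre1* and *Csf1r* at 0 in every Control (NT) library. The list summed to between 5.36 and 5.56 CPM in Control (NT) and between 4.87 and 5.09 in KD-1, most of it from *Cd68* and *Itgam*. Its 3 tested genes differed in direction. *Cd68* was called lower, from 3.57 ± 0.276 to 1.98 ± 0.0667 CPM (log2 fold change -0.85, adjusted p = 0.0013). *Mrc1*, a marker of alternative activation, was called higher, from 0.0912 ± 0.102 to 0.928 ± 0.173 CPM (log2 fold change 3.41, adjusted p = 0.0017), and *Itgam* was not called (log2 fold change 0.15). The 9 hepatocyte markers summed to at most 0.711 CPM in any library, and none was tested because of low counts. The tested somite markers given above had a median log2 fold change of -4.66. The smallest changes were in *Pax3* (log2 fold change -1.09) and *Dll1* (-0.17, not called). Named as examples of large changes, *Meox1* went from 371 ± 16.7 to 0.423 ± 0.0313 CPM and *Foxc1* from 43.4 ± 9.78 to 0.311 ± 0.0422 (SD, n = 3 each). Of the 7 feeder fibroblast markers 4 were tested and 3 called lower (75% called, beside 37.7% of all genes). Their sums were 8.34 to 9.15 against 0.818 to 1.00 CPM. The other tested marker, *Thy1*, had 0.133 ± 0.127 and 0.451 ± 0.112 CPM, higher in KD-1 but not called (log2 fold change 1.59, adjusted p = 0.083). Whether the RNA of this list came from feeder cells or from the gastruloid cells was not tested. The part of these marker genes in the *Arg1* result was not tested.

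The pair of enzymes that rebuild arginine differed between the groups in opposite directions, neither past the fold threshold. *Ass1*, argininosuccinate synthase (ENSMUSG00000076441, GRCm39 chromosome 2, from 31352181 to 31410862, plus strand), had 31.3, 31.3 and 34.3 CPM in Control (NT) against 37.8, 34.8 and 36.9 for KD-1. The groups did not overlap, by a margin smaller than the range within either group, and the log2 fold change was 0.18 (standard error 0.07). *Asl*, argininosuccinate lyase (ENSMUSG00000025533, GRCm39 chromosome 5, from 130040099 to 130058088, minus strand), had 18.1, 20.4 and 20.4 CPM in Control (NT) against 14.5, 13.4 and 12.7 for KD-1. Every KD-1 library lay below every Control (NT) library, with a log2 fold change of -0.54 (standard error 0.09), just inside the 1.5-fold threshold. It crossed the threshold, at -0.60, when the Control (NT) library of lowest depth was left out. The ratio of *Ass1* to *Asl* per kb of exon went from 2.94 ± 0.182 to 4.82 ± 0.308 (SD, n = 3 each). The groups could not overlap in this ratio, since the KD-1 libraries were all higher in *Ass1* and all lower in *Asl*. Of the 31-base words of *Ass1* transcripts, 23.7% recur in the copy *Gm5424*. These ratios within a library, here and below, were chosen after values were seen.

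The RefSeq promoter window of *Ass1* held a canonical E-box, CACGTG, the sequence that MYC and related factors with a basic helix-loop-helix domain recognise. It is shown as sequence only, and whether any factor binds it was not tested (GRCm38.p6, chr2:31470020-31470269, plus strand, the 250 bases before the RefSeq start, E-box in capitals).
*Ass1* promoter: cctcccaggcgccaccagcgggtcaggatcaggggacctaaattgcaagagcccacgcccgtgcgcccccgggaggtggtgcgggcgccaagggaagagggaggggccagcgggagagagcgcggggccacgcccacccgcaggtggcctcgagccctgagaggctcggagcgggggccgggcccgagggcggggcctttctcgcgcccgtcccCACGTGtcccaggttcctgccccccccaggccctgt
The E-box begins 36 bases before the start. The letters CACGTG read the same on both strands and were found in 6.02% of 32851 RefSeq promoter windows of this length. Promoter windows were at hand for 6 members, *Ass1*, *Oat*, *Odc1*, *Amd1*, *Sms* and *Sat1*, and the E-box stood in those of *Ass1* and *Sms*. Sequence past the start, introns included, was not searched, so a gene without an E-box here may hold one elsewhere. TATAAA, searched on both strands and found in 12.4% of all windows, was in none of the 6. Only these exact letters were searched, and the *Amd1* window holds the similar run TATATAAG.

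*Oat*, the mitochondrial enzyme that sends ornithine towards proline and glutamate (ENSMUSG00000030934, GRCm39 chromosome 7, from 132159153 to 132191517, minus strand), was slightly lower in KD-1. It had 144, 142 and 139 CPM in Control (NT) against 120, 124 and 124 for KD-1. The groups did not overlap and the spread within each was small (SD of 2.96 and 2.24 CPM), but the log2 fold change was only -0.21 (standard error 0.05). *Oat* shares almost no sequence with other genes (0.44% of its 31-base words).

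*Odc1*, ornithine decarboxylase (ENSMUSG00000011179, GRCm39 chromosome 12, from 17594383 to 17601507, plus strand), was the most abundant member in both groups. It had 533, 576 and 564 CPM in Control (NT) against 669, 634 and 638 for KD-1. All KD-1 libraries were above all Control (NT) libraries, by a log2 fold change of 0.21 (standard error 0.06). The copy *Gm7993*, which shares 10.5% of the 31-base words of *Odc1*, took between 2.43% and 4.11% of the counts of both, and adding its counts left the log2 fold change at 0.21. Relative to *Odc1* per kb of exon, *Oat*, the competing user of ornithine, went from 0.185 ± 0.0103 to 0.138 ± 0.00647 (SD, n = 3 each).

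*Amd1*, SAM decarboxylase (ENSMUSG00000075232, GRCm39 chromosome 10, from 40162797 to 40178185, minus strand), had 238, 209 and 218 CPM in Control (NT) against 276, 268 and 277 for KD-1. The KD-1 libraries were all higher, with a log2 fold change of 0.30 (standard error 0.06). Its counts cannot be separated cleanly from those of *Amd2*, a copy on the same chromosome, since 49.7% of the 31-base words of *Amd1* transcripts recur there. The 1002 coding bases of *Amd2* matched the *Amd1* coding sequence at all but 1 position, G796C, counted from the first coding base and written as *Amd1* base, position, *Amd2* base. The stretch around it shows how little separates them (GENCODE vM39 transcripts, coding bases 766 to 825 of both, sense strand, the differing base in capitals).
*Amd1*: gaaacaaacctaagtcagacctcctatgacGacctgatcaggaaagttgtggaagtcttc
*Amd2*: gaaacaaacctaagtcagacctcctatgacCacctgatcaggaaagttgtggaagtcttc
*Amd2* was assigned between 9.36% and 10.9% of the counts of the pair, and its own log2 fold change was 0.15 (standard error 0.07). With the counts of both added, the log2 fold change was 0.30 (standard error 0.06).

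The synthases that act after AMD1 differed from each other. *Srm*, spermidine synthase (ENSMUSG00000006442, GRCm39 chromosome 4, from 148675940 to 148681792, plus strand), had 47.8, 59.7 and 58.2 CPM in Control (NT) against 60.6, 54.9 and 54.2 for KD-1. The groups overlapped, and the log2 fold change of 0.03 (95% interval -0.18 to 0.24) changed sign, to -0.06, without the Control (NT) library of lowest depth. *Sms*, spermine synthase (ENSMUSG00000071708, GRCm39 chromosome X, from 156226848 to 156275317, minus strand), had 154, 175 and 147 CPM in Control (NT) against 238, 231 and 234 for KD-1. Each KD-1 library exceeded the highest Control (NT) library, and the log2 fold change was 0.56 (standard error 0.07), the largest upward difference of the members and just under the 1.5-fold threshold. With the Control (NT) library of middle depth left out it was 0.64 and past the threshold. The copy *Sms-ps*, also on the X chromosome, shares 16.3% of the 31-base words of *Sms* and took between 15.4% and 19.6% of their joint counts. Its own log2 fold change was 0.48 (standard error 0.07), and the sum of both gave 0.56. Of the tested genes on the X chromosome 27.7% were called higher, beside 19.7% of all genes, and their median log2 fold change was 0.17. The ratio of *Srm* to *Sms* per kb went from 0.502 ± 0.0622 to 0.347 ± 0.0173 (SD, n = 3 each). The groups did not overlap in this ratio, as they already did not in *Sms* alone.

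*Sms* has 2 RefSeq promoter windows, and the one that lies upstream holds the other E-box among the members, 196 bases before its start (GRCm38.p6, chrX:157492288-157492537, minus strand, E-box in capitals).
*Sms* promoter: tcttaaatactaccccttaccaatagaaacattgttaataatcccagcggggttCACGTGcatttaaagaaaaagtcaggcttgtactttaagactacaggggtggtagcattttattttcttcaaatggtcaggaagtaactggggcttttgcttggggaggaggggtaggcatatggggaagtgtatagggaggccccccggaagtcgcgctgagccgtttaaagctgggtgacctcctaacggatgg
This window has a GC content of 47.2%, against 75.2% for the second window, which holds no E-box. The counts are per gene and do not say which start was used.

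*Sat1*, spermidine/spermine acetyltransferase, which starts the return of polyamines to putrescine (ENSMUSG00000025283, GRCm39 chromosome X, from 153996128 to 153999452, minus strand), had 59.1, 58.5 and 53.0 CPM in Control (NT) against 47.9, 51.0 and 49.6 for KD-1. The KD-1 libraries were all lower, with a log2 fold change of -0.20 (standard error 0.07). The ratio of *Odc1* to *Sat1* per kb was 4.83 ± 0.398 in Control (NT) against 6.43 ± 0.391 for KD-1 (SD, n = 3 each).

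**Figure D2:**
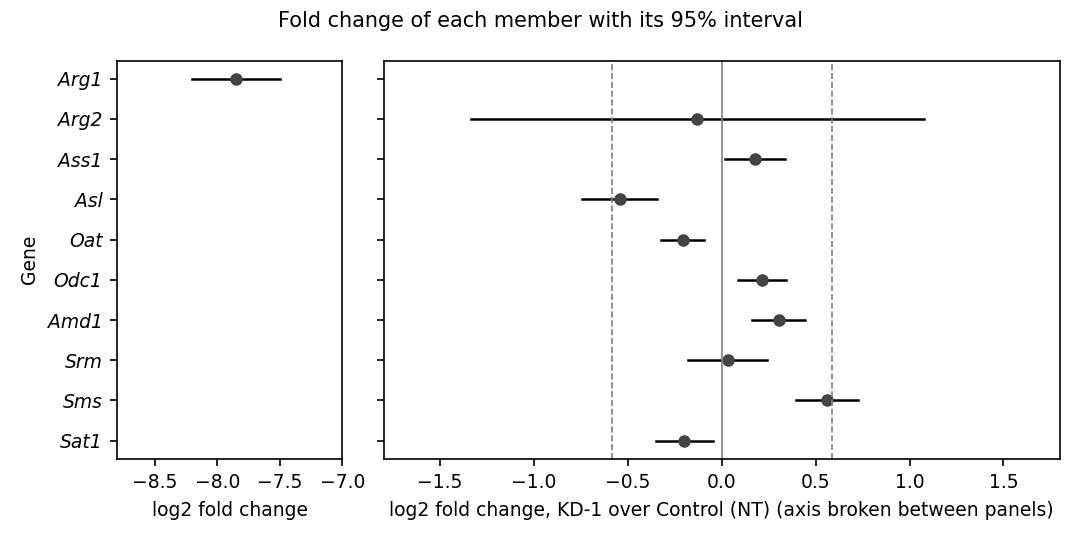
log2 fold change (KD-1 over Control (NT)) of each member with its 95% interval from edgeR's fit; the horizontal axis is broken between the panels and dashed lines mark a 1.5-fold change. *Arg1* stands alone at -7.85, *Asl* (-0.54) and *Sms* (0.56) lie just inside the dashed lines, and the interval of *Arg2* spans both.

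All 10 members passed the filter on low counts. Of these 1 was called, *Arg1*, against 37.7% of the 15110 genes tested over the whole table, and in 8 the groups did not overlap, against 70.6% of genes. *Arg2* and *Srm* were the exceptions. The median log2 fold change of the members was -0.05, beside -0.01 over all genes tested. Since the members were chosen with this contrast in view, nothing is read from these counts.

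Per kb of exon, the order of levels in Control (NT) was *Odc1* (98.5 ± 3.93 CPM per kb), *Amd1* (41.2 ± 2.71), *Arg1* (27.0 ± 1.86), *Sms* (25.4 ± 2.35), *Sat1* (20.5 ± 1.203), *Oat* (18.2 ± 0.379), *Srm* (12.7 ± 1.49), *Ass1* (8.64 ± 0.459), *Asl* (2.95 ± 0.201) and *Arg2* (0.239 ± 0.164). *Arg1* and *Sms* lay within each other's spread. In KD-1 *Arg1* dropped to the last place with 0.108 ± 0.0351 CPM per kb, below *Arg2* (0.216 ± 0.0202), and the order of the others was kept. This order depends on the length used. With the longest coding transcript in place of all exons, *Oat* in Control (NT) came to 64.2 CPM per kb and stood second, between *Odc1* (123) and *Amd1* (57.3), while *Arg1* in KD-1 (0.214) was level with *Arg2* (0.216).

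Around the members, 84 further genes of arginine, ornithine and polyamine metabolism, their transport and the MYC family were taken from lists written from pathway knowledge. They were not picked by how each gene moved, but earlier results of these data were known. Their calls and adjusted p-values are therefore a description. Of the 84 genes, 69 were tested, of which KD-1 had 19 called higher and 9 lower. This is 40.6%, beside 37.7% of all genes, with 19.7% called higher and 18.1% lower over the whole table. The median log2 fold change was 0.20.

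**Figure D3:**
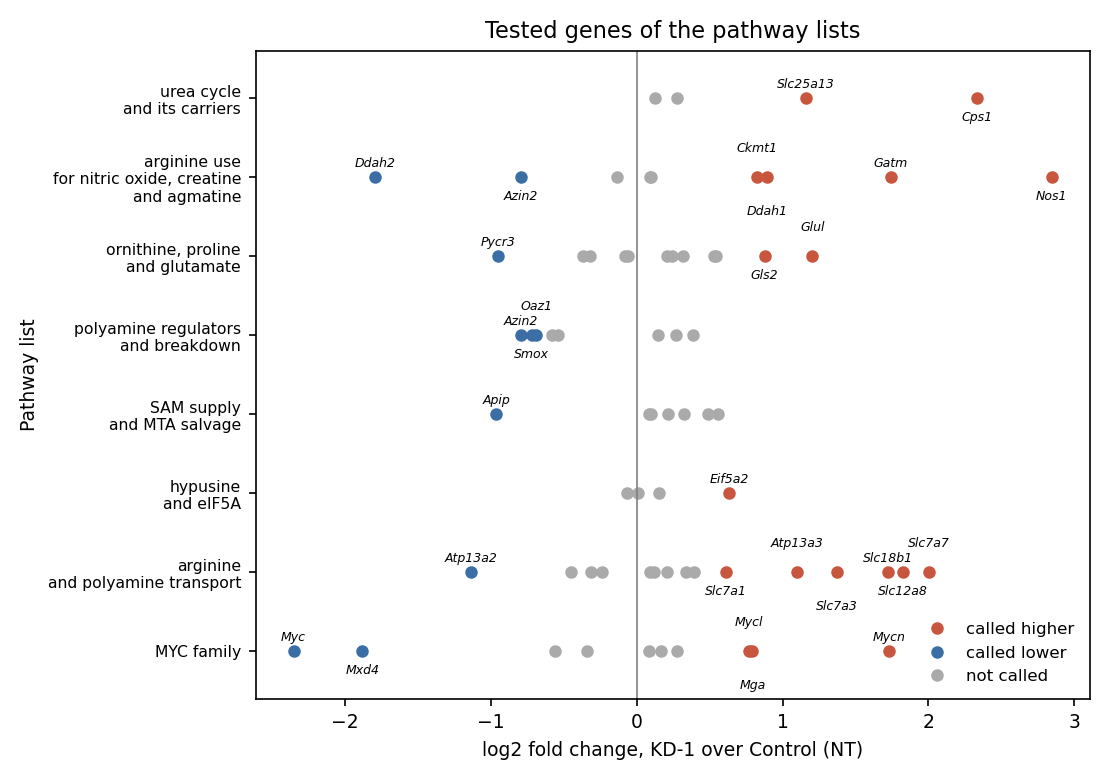
log2 fold change (KD-1 over Control (NT)) of the tested genes of the pathway lists except 1 that is not reported here, with a row per list; red points were called higher, blue points lower, grey points not called. *Nos1* (2.85) and *Myc* (-2.35) lie at the ends, and the transport list has 6 genes called higher and 1 lower.

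Several urea cycle genes were at or near the limit of detection in both groups. *Nags*, *Otc* and *Slc25a2* were too low to be tested, with at most 12 counts in any library. *Cps1*, carbamoyl phosphate synthetase, the entry step of the cycle, was called higher from a trace level, 4, 4 and 1 counts in Control (NT) against 15, 21 and 45 for KD-1 (log2 fold change 2.33, standard error 0.66, adjusted p = 0.013), and lost its call without the KD-1 library of middle depth (adjusted p = 0.05) or of highest depth (adjusted p = 0.067). *Slc25a13*, the mitochondrial aspartate-glutamate carrier that supplies aspartate to ASS1, rose from 36.0 ± 0.864 to 80.4 ± 2.88 CPM (SD, n = 3 each; 1.16 on the log2 scale, standard error 0.06, adjusted p = 8.7e-07). So of 7 genes of the list, 4 were tested, 2 were called higher and none lower (50% called, beside 37.7% of all genes). *Cps1* lies on chromosome 1, where 40.2% of tested genes were called higher and the median log2 fold change was 0.49.

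Of 12 genes that use arginine for nitric oxide, creatine or agmatine, 9 were tested, 4 called higher and 2 lower. This is 66.7% called, beside 37.7% of all genes. *Nos1*, neuronal nitric oxide synthase, rose from 0.656 ± 0.310 to 4.37 ± 0.306 CPM (2.85 on the log2 scale, standard error 0.28, adjusted p = 3.6e-05), while *Nos2* had at most 1 count and *Nos3* at most 15 in any library. The enzymes that degrade the methylarginine inhibitors of nitric oxide synthases went in opposite directions. *Ddah2* fell from 104 ± 21.5 to 30.1 ± 2.23 CPM (log2 fold change -1.79, standard error 0.14, adjusted p = 9.9e-06), and *Ddah1* rose from 6.76 ± 0.929 to 12.7 ± 0.750 CPM (log2 fold change 0.89, standard error 0.12, adjusted p = 2.3e-04). *Gatm*, which takes arginine into creatine synthesis, rose by a log2 fold change of 1.74 from 1.49 ± 0.543 CPM (adjusted p = 3.1e-04), and the mitochondrial creatine kinase *Ckmt1* by 0.82 (adjusted p = 0.0021). *Azin2*, an antizyme inhibitor, fell by 0.79 on the log2 scale (adjusted p = 0.0018). *Agmat*, which would make putrescine from agmatine, had at most 1 count in any library.

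Of 14 genes that link ornithine, proline and glutamate, 13 were tested, 3 called higher and 1 lower (30.8% called, beside 37.7% of all genes). *Glul*, glutamine synthetase, rose from 171 ± 6.35 to 394 ± 4.99 CPM (log2 fold change 1.203, standard error 0.05, adjusted p = 4.0e-07). It lies on chromosome 1, whose genes as a whole were shifted upwards as given above. *Gls2*, a glutaminase gene on chromosome 10, rose by 0.88 at a mean of 4.96 CPM in KD-1 (adjusted p = 0.0011). *Pycr3*, which makes proline from ornithine-derived pyrroline carboxylate in the cytosol, fell from 23.3 ± 4.54 to 12.1 ± 0.800 CPM (log2 fold change -0.95, standard error 0.14, adjusted p = 3.6e-04). *Aldh18a1*, the enzyme that makes the same intermediate from glutamate, was chosen after its values were seen and had 77.1 ± 4.21 and 73.1 ± 1.54 CPM, with a log2 fold change of -0.08 and a 95% interval that spans 0.

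Of 10 regulators and breakdown enzymes of polyamines 8 were tested, none was called higher and 3 were called lower. The share called, 37.5%, was close to the 37.7% of all genes. The median log2 fold change was -0.56, beside -0.01 over all genes. *Oaz1*, the antizyme that binds ornithine decarboxylase and sends it to the proteasome, had 125, 189 and 156 CPM in Control (NT) against 104, 95.7 and 91.4 for KD-1. The KD-1 libraries were all lower (log2 fold change -0.69, standard error 0.13, adjusted p = 0.0019), but with the Control (NT) library of middle depth left out, the highest of all, the log2 fold change was -0.54 and inside the fold threshold. *Oaz2*, chosen after its values were seen, lay just inside it as well, from 106 ± 2.97 to 71.2 ± 1.28 CPM (log2 fold change -0.58, standard error 0.05, adjusted p = 2.4e-05). The summed level of both antizymes per kb was 97.0 ± 13.7 in Control (NT) against 62.0 ± 3.00 for KD-1, and the ratio of *Odc1* to *Oaz1* per kb went from 1.63 ± 0.276 to 2.98 ± 0.129 (SD, n = 3 each). *Smox*, spermine oxidase, fell from 10.1 ± 1.61 to 6.16 ± 0.811 CPM (log2 fold change -0.72, standard error 0.15, adjusted p = 0.0027), and *Azin2*, which stands in both lists, is given above. The remaining tested genes, added after values were seen, were not called and went both ways. The oxidase *Paox* (log2 fold change 0.39, standard error 0.07), *Azin1* (0.27, standard error 0.06) and *Amd2* (0.15) were higher in KD-1, and *Sat2* was lower (-0.54, standard error 0.16). The antizymes are made by a ribosomal frameshift that responds to polyamines, so their mRNA level is not their protein level.

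Of 8 genes for SAM supply and methylthioadenosine salvage, 7 were tested, none was called higher and 1, the salvage enzyme *Apip*, was called lower, from 34.8 ± 4.79 to 17.8 ± 1.15 CPM (log2 fold change -0.96, standard error 0.11, adjusted p = 7.2e-05). This is 14.3% called, beside 37.7% of all genes. *Mat2a*, the SAM synthetase and the highest of the list, had 414 ± 30.4 CPM in Control (NT) against 582 ± 12.98 for KD-1 and was below the fold threshold (0.49 on the log2 scale, standard error 0.07, adjusted p = 2.4e-04). Of the 4 hypusine genes, all tested, 1 was called, too few genes to set against the share over all genes. *Eif5a2* rose from 36.9 ± 0.658 to 57.2 ± 0.794 CPM (log2 fold change 0.63, standard error 0.06, adjusted p = 2.3e-05). The main form *Eif5a* had 838 ± 113 and 799 ± 47.4 CPM, with overlapping groups and a log2 fold change of -0.07 (95% interval spanning 0) that was 0.03 once the Control (NT) library of middle depth was left out.

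Of 20 transport genes 15 were tested, 6 called higher and 1 lower (46.7% called, beside 37.7% of all genes). *Slc7a3*, a cationic amino acid transporter that imports arginine, had 45.4, 45.8 and 50.5 CPM in Control (NT) against 126, 122 and 120 for KD-1 (log2 fold change 1.37, standard error 0.06, adjusted p = 4.3e-07). Like *Sms*, it lies on the X chromosome, whose share of genes called higher is given above. *Slc7a1*, the widely expressed arginine importer, rose from 69.2 ± 7.00 to 106 ± 0.909 CPM (log2 fold change 0.61, standard error 0.08, adjusted p = 1.7e-04), but had 0.52 and lost its call with the Control (NT) library of middle depth left out. Summed over *Slc7a1*, *Slc7a2* and *Slc7a3* the level per kb was 15.99 ± 1.11 in Control (NT) against 34.7 ± 0.693 for KD-1 (SD, n = 3 each).

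*Slc7a7*, the light chain of an exchanger that exports cationic amino acids, rose from 11.6 ± 0.535 to 46.4 ± 1.72 CPM (log2 fold change 2.00, standard error 0.07, adjusted p = 1.2e-07). Among polyamine transporters *Atp13a3*, of the plasma membrane and endosomes, rose from 88.8 ± 13.4 to 190 ± 3.21 CPM (log2 fold change 1.096, standard error 0.10, adjusted p = 2.6e-05). The lysosomal exporter *Atp13a2* fell from 13.8 ± 3.03 to 6.31 ± 0.0134 CPM (log2 fold change -1.13, standard error 0.15, adjusted p = 2.5e-04). The paralogous pumps went in opposite directions. *Slc18b1*, a vesicular polyamine carrier, rose from 4.12 ± 0.487 to 13.6 ± 0.493 CPM (log2 fold change 1.72, adjusted p = 4.1e-06) and *Slc12a8* from 1.22 ± 0.249 to 4.46 ± 0.375 CPM (log2 fold change 1.82, adjusted p = 5.1e-05). The neutral amino acid transporter *Slc7a5*, the highest of the list per kb, had 96.9 ± 13.7 and 127 ± 6.67 CPM and was below the fold threshold (0.39 on the log2 scale, standard error 0.10, adjusted p = 0.0073).

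**Figure D4:**
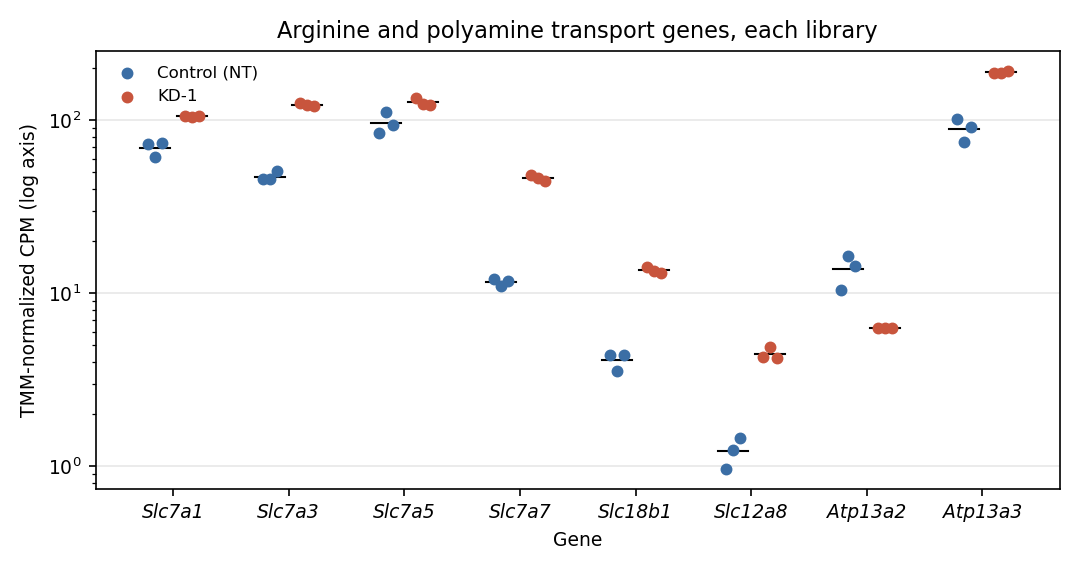
TMM-normalized CPM (log axis) of 8 transport genes in each library; points are libraries, horizontal bars are group means. In 6 genes the KD-1 libraries lie above the Control (NT) libraries by more than 1.5-fold on average, *Slc7a5* differs by less, and *Atp13a2* is lower in KD-1.

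MYC transcription factors are known activators of *Odc1* and other polyamine genes, and the genes of this family went in opposite directions here. *Myc* had 27.4, 41.7 and 28.1 CPM in Control (NT) against 6.80, 6.25 and 6.05 for KD-1 (log2 fold change -2.35, standard error 0.17, adjusted p = 5.9e-06). *Mycn* had 20.2, 24.6 and 19.9 CPM in Control (NT) against 72.7, 70.7 and 71.0 for KD-1 (log2 fold change 1.73, standard error 0.09, adjusted p = 9.4e-07), and *Mycl* rose from 18.6 ± 1.43 to 31.9 ± 1.09 CPM (log2 fold change 0.77, adjusted p = 4.2e-05). Per kb of exon, *Myc* made up 56.2% ± 3.88 of the summed level of these 3 genes in Control (NT) and 9.18% ± 0.335 in KD-1, and *Mycn* 22.4% ± 1.28 and 61.0% ± 0.666 (SD, n = 3 each). The sum itself was 20.96 ± 3.70 CPM per kb in Control (NT) against 25.4 ± 0.618 for KD-1, and the groups overlapped, the Control (NT) library of middle depth having 25.2 and the lowest KD-1 library 24.9. Of the 10 genes of the family list all were tested, 3 called higher and 2 lower (50% called, beside 37.7% of all genes). The other calls were *Mga*, which rose from 197 ± 41.7 to 341 ± 17.7 CPM (log2 fold change 0.79, adjusted p = 0.0011), and the antagonist *Mxd4*, which fell from 58.5 ± 2.06 to 15.9 ± 0.451 CPM (log2 fold change -1.88, adjusted p = 1.1e-07). The polyamine-making members *Odc1*, *Amd1*, *Srm* and *Sms* had log2 fold changes of 0.21, 0.30, 0.03 and 0.56. Any relation between the MYC family and these genes was not tested.

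**Figure D5:**
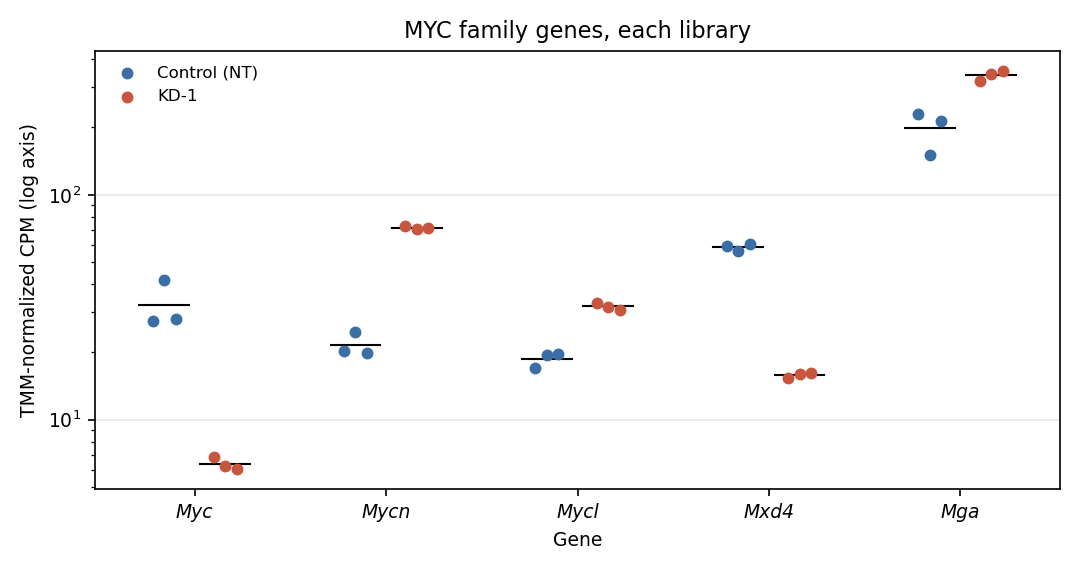
TMM-normalized CPM (log axis) of 5 MYC family genes in each library; points are libraries, horizontal bars are group means. *Myc* and *Mxd4* are lower and *Mycn*, *Mycl* and *Mga* higher in KD-1, with no overlap between the groups in any of the 5.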

How the data were processed

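Libraries were prepared with the Illumina TruSeq kit and quantified, by the submitters' processing notes, with Salmon (version 1.1) on a gene model from Gencode. Its species and build are not given in the sources used here. The authors deposited estimated counts per Ensembl gene, made from reads by Salmon, as whole numbers without normalization. How transcripts were summed, rounding and strand use are not given in the sources used here. Salmon divides reads among near-identical sequences, so counts of such genes are uncertain. The columns give each library's group but not a replicate number matching the labels, so libraries are named by depth.

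Names, positions and exon lengths came from GENCODE vM39 (GRCm39), which matched 35222 of 35565 identifiers. Promoters came from RefSeq (GRCm38.p6), with no entry for *Arg1*, *Arg2*, *Asl* and *Srm*. Differential expression used edgeR 4.0.16 under R 4.3.3, with the filterByExpr filter, TMM factors, a robust quasi-likelihood fit and Benjamini-Hochberg adjustment over 15110 genes. The fits were checked on simulated data. Alternatives were DESeq2 (version 1.42.0), RLE or library size scaling, other filters and fold thresholds, and each library left out. A count of 0 allows up to 0.143 CPM in the shallowest library (3 counts). The members and lists were chosen with earlier results of these data known. Named genes are all members, every called gene of a pathway list and the highest gene per length of each list, *Myc*, *Mycn* and *Mycl*, and others only where stated. Of the called pathway genes, 1 enters the counts but is not reported here by name.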

Additional observations from a re-analysis of the deposited data

How the results depend on the processing

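*Arg1* was called lower under every alternative tried, with a log2 fold change between -8.23 and -7.70. Under the other scalings, tool and filters and with each library left out, at the same fold threshold, 6 of the 10 members kept their direction and call, as did 27 of the 31 pathway genes named by the rule. The number of members called was 2, in place of 1, with DESeq2, with RLE size factors, with library size scaling and with at least 10 counts in every library, *Sms* being the addition each time, and lay between 1 and 2 with a library left out. It was 7 with no fold threshold. Over all genes tested, 9597 were called with no fold threshold and 3274 at an absolute log2 fold change over 1, against 5704, and between 5176 and 6113 with a library left out. For the pathway lists these counts were 48 and 16, against 28. With a library left out, log2 fold changes lay between -0.53 and 0.64 for *Arg2*, between -0.062 and 0.077 for *Srm* and between -0.16 and 0.032 for *Eif5a*, so that each changed sign. The *Arg1* share of the arginase level in KD-1 was 49.0% by the longest coding transcript, against 32.9%, from the same CPM with only the length changed. The cause of the other differences between settings was not tested. Adding the counts of near-identical copies was chosen after seeing the data. No paired analysis was possible because the columns carry no replicate numbers that match the labels. Depth limits *Arg2* and *Cps1*, which rest on few counts.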
